A study of Homo sapiens with 6 samples.

Results

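Renin-angiotensin genes were followed in Hep3B cells, an established human hepatocellular carcinoma (HCC) line. The 8 genes were AGT, ACE, AGTR1, AGTR2, MAS1, ATP6AP2, ENPEP and LNPEP, taken by name from the 23228 genes of the count tables. Each had 1 row in every table, and 6 of the 8 had enough reads to be tested. They were selected on their read counts in the same contrast that is described here, so their values are a description and carry no test. RNA-seq compared 3 control libraries, from cells with lentivirus carrying a shRNA without a target, with 3 libraries labelled PELP1-KD, from cells with lentivirus carrying a shRNA against PELP1. PELP1 is a coregulator of nuclear receptors. The PELP1-KD cells came from puromycin selection, as a pool of clones. The labels describe 2 PELP1 shRNAs, while sample titles point to the first of them. PELP1 RNA stood at 94.5% of control in these libraries, and its difference passed the test only under some alternatives given below. For these libraries, a loss of PELP1 is known from the label and not from the counts. The paper reports reduced PELP1 protein by Western blot in its Hep3B knockdown cells, and these libraries do not measure protein. PELP1-KD therefore names the label, and in these libraries an effect of the shRNA and one of lower PELP1 cannot be told apart. The paper also used 2 shRNAs in its cell assays and checked representative genes by RT-qPCR. It reports lower Myc, E2F and liver cancer genes after SMIP34, a small-molecule inhibitor of PELP1. Its primer list includes AGTR1, but its text gives no result for that gene.

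The renin-angiotensin system is a peptide hormone cascade that controls blood pressure and salt balance. Liver cells secrete angiotensinogen, the protein made by AGT. Proteolysis releases angiotensin I from it, and angiotensin-converting enzyme (ACE) trims this peptide to angiotensin II. Angiotensin II acts mainly on the type 1 receptor (AGTR1), a receptor coupled to Gq proteins that drives contraction of vessels, aldosterone release and tissue fibrosis. The type 2 receptor (AGTR2) and the MAS1 receptor, which answers to angiotensin-(1-7), are known for opposing effects.

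Sequencing gave 26758180 to 34456393 reads on genes per library, and 3 reads in a library correspond to 0.0871 to 0.112 RPM (reads per 1000000 reads). The targeted gene had 5338, 5127 and 5348 reads in control. Under the label PELP1-KD it had 4318, 4135 and 4846. After scaling to library size, PELP1 stood at 4970 ± 115 against 4695 ± 238 normalized reads (SD, n = 3 each), or 94.5% of control. Its log2 fold change of −0.08 (SE 0.04) did not pass the threshold (edgeR adjusted p = 0.101), though the groups did not overlap. It passed with the replicate number as a block (edgeR adjusted p = 0.0106) and without PELP1-KD replicate 3 (log2 fold change −0.10, edgeR adjusted p = 0.018). Of 14537 tested genes, 26.8% were lower and 26.8% were higher in PELP1-KD at an adjusted p below 0.05. At a change of at least 2-fold as well, 4.79% were lower and 2.85% were higher. In 58.8% of tested genes the 3 libraries of one group did not overlap those of the other. Nothing in the labels says that replicates were separate cultures, so p-values measure the spread between these libraries only. Markers of hepatocytes were abundant in all 6 libraries. Their summed level was 753582 to 767517 normalized reads in control and 641451 to 659506 in PELP1-KD. Of these 6 markers, 5 were lower and AFP, the alpha-fetoprotein of fetal liver and many liver tumours, was higher (log2 fold change 0.62).

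AGTR1, which makes the type 1 receptor, had the largest difference of the 8 genes. Its mean fell from 1073 to 50.9 normalized reads, or to 4.75% of control. AGT, the hormone's precursor, stood at 66.5% of control, and ACE, at very few reads, at 42.6%. ENPEP, an aminopeptidase that degrades angiotensin II, stood at 132% of control. ATP6AP2 and LNPEP were close to control, and AGTR2 and MAS1 had no read. By the edgeR fit, 3 of the 6 tested genes were called lower (AGT, AGTR1 and ACE) and 1 higher (ENPEP), where 26.8% of all tested genes were called in each direction. AGTR1 and ACE were also past 2-fold, which 4.79% of tested genes were in that direction. ACE entered the tested genes through its control libraries, as given below, and was untested when at least 10 reads were required in every library. The groups did not overlap for AGT, AGTR1, ACE and ENPEP, 4 of the 6, against 58.8% of all tested genes. Nothing is read from these counts, because the contrast itself chose the genes. The median log2 fold change of the 6 was −0.27, beside 0.0044 for all tested genes.

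**Figure D1:**
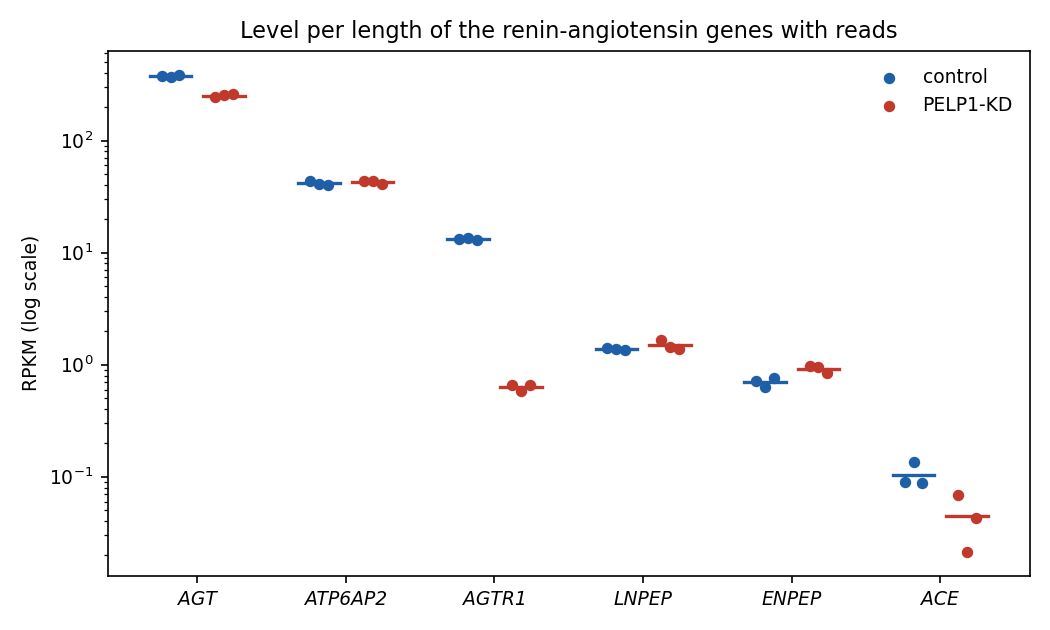
Level of the 6 renin-angiotensin genes with reads, in RPKM (reads per kb of exon per 1000000 reads, log axis). Each point is 1 library, blue for control and red for PELP1-KD, and each bar is the mean of 3. AGTR1 lies between ATP6AP2 and LNPEP in control and below ENPEP in PELP1-KD, while the order of the other genes is the same in both groups.

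AGT encodes angiotensinogen and lies on the minus strand at chr1:230838272-230850336 (hg19), with 5 exons and 2581 exon bases. The hormone itself is a short stretch of this protein. Exon 2 holds the 10 codons of angiotensin I, codons 25 to 34 of the reading frame, at chr1:230846468-230846497 (GRCh37, minus strand). They are shown 5′ to 3′ as the part of the transcript that becomes hormone, with the 8 codons of angiotensin II in capitals and the pair that ACE removes in lower case:
angiotensin I, coding bases: GACCGGGTGTACATACACCCCTTCcacctc

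AGT reads numbered 33126, 31534 and 33033 in control and 19236, 17627 and 20997 in PELP1-KD. Normalized reads were 30367, 30224 and 31511 in control and 19693, 20568 and 20972 in PELP1-KD. All 3 PELP1-KD libraries lay below all 3 control libraries, and each group varied by a few percent. The means were 30700 ± 706 and 20411 ± 653 (SD, n = 3 each), and the fitted log2 fold change was −0.59 (SE 0.03). In bulk RNA, fewer cells that express a gene and less RNA per cell cannot be told apart, for AGT and for each gene that follows. AGT remained one of the most abundant transcripts, at 379 ± 8.70 RPKM in control and 252 ± 8.06 in PELP1-KD (SD, n = 3 each). Ordered by RPKM among genes with a read, it was number 160 of 18070 in control and 257 of 17886 in PELP1-KD. Of the 6 hepatocyte markers, ALB (serum albumin) and TTR (transthyretin) had log2 fold changes of −0.61 and −0.61, SERPINA1 and APOB −0.46 and −0.46, and TF (transferrin) −0.33, while AFP went the other way at 0.62. The part of the hepatocyte markers' change in the AGT difference was not tested.

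The AGT promoter is shown because the RNA it drives was lower in PELP1-KD and liver factors are known to act on it. ENPEP's, from a gene that was higher, is set beside it. Both come from RefSeq (GRCh38.p14) and run 5′ to 3′ on the gene's strand, from 250 bases before the gene's start to 50 after. The AGT promoter is at chr1:230714073-230714372, minus strand, and that of ENPEP at chr4:110475905-110476204, plus strand. Capitals mark matches to the 6-letter motifs searched on both strands, which do not overlap each other here:
AGT promoter: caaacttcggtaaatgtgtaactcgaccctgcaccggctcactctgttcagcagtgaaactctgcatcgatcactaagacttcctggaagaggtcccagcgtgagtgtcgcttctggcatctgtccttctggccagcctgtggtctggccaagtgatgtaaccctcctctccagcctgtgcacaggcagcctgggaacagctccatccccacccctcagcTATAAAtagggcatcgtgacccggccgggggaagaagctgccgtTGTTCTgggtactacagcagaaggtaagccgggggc
ENPEP promoter: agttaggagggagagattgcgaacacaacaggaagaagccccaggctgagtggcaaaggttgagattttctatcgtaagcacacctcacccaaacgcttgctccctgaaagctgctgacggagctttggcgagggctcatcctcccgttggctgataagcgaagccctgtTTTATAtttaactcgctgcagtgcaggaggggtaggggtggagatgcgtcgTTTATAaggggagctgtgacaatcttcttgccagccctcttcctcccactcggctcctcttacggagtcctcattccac

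The TATA box was searched as TATAAA, which 11.5% of the 35116 promoters in the table hold. The half-site of nuclear receptors was searched as AGGTCA, which 13.8% of them hold. The half-site of steroid receptors was searched as TGTTCT, and 14.8% hold it. In AGT the TATA box begins 30 bases before the gene's start, and the steroid receptor half-site lies 14 bases after it. In ENPEP the TATA box matches on the opposite strand, 80 and 29 bases before the start. The 2 promoters of ACE hold the nuclear receptor half-site 48 bases before one start and a TATA box, on the opposite strand, 31 bases before the other. Of LNPEP's promoters, 1 holds a TATA box 244 bases before its start. Those of AGTR2, MAS1 and ATP6AP2 hold none of the motifs. In all, 7 of the 8 genes were matched, with 9 promoters, and AGTR1 was not matched. A match is a description of the letters and not a site of binding.

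ACE, the enzyme that trims angiotensin I to angiotensin II, was barely detected. It lies on the plus strand at chr17:61554422-61575741 (hg19), with 26 exons and 5219 exon bases. It had 16, 23 and 15 reads in control and 11, 3 and 7 in PELP1-KD. Every PELP1-KD library lay below every control library, also after scaling (14.7, 22.0 and 14.3 normalized reads against 11.3, 3.50 and 6.99). The means were 17.0 ± 4.37 and 7.25 ± 3.89 (SD, n = 3 each), and the log2 fold change was −1.19 (SE 0.41). Pooled over the libraries, 54 against 21 reads gave a level 2.29-fold lower, with a 95% interval of 1.36 to 3.99 that covers counting error only. ACE was tested only because its control libraries passed the filter on low counts, which 1 of the 3 PELP1-KD libraries also did. Its log2 fold change was −0.96 without control replicate 2 and −0.89 without PELP1-KD replicate 2, and edgeR no longer called it in either case.

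AGTR1 lies on the plus strand at chr3:148415658-148460790 (hg19), with 5 exons and 2571 exon bases. It had 1173, 1144 and 1097 reads in control. In the libraries labelled PELP1-KD it had 52, 40 and 53. The control libraries lay within a narrow band and so did the PELP1-KD libraries, with a wide gap between the groups. Normalized reads were 1075, 1096 and 1046 in control against 53.2, 46.7 and 52.9 in PELP1-KD, means of 1073 ± 25.1 and 50.9 ± 3.71 (SD, n = 3 each). The log2 fold change was −4.39 (SE 0.09), and it stayed between −4.42 and −4.33 when each library was left out in turn. By pooled reads, 3414 against 145, the level was 21.0-fold lower, with a 95% counting interval of 17.8 to 24.9. The residual reads were above the floor of 3 reads in each of the 3 PELP1-KD libraries, so AGTR1 transcripts were still detected.

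Per length, AGTR1 went from 13.3 ± 0.311 RPKM in control to 0.631 ± 0.0459 in PELP1-KD (SD, n = 3 each). This moved it from number 5445 of 18070 genes with a read to number 12732 of 17886. AGTR1 is also expressed by stellate cells and smooth muscle, so markers of those cells were read beside it. The libraries came from the Hep3B line, so these genes are read as transcripts of that culture, with no other cell type inferred. ACTA2, DES, LRAT and MYH11, 4 of the 5 markers, had a mean under 10 reads. None was at 0 in all libraries. The summed level of the 5 was 141 to 164 normalized reads in control and 33.8 to 43.9 in PELP1-KD. Nearly all of it was PDGFRB, the receptor of platelet-derived growth factor, with 143, 152 and 163 reads in control and 30, 27 and 36 in PELP1-KD. That is a log2 fold change of −2.13 (SE 0.16, edgeR adjusted p = 9.91e-10). Of the endothelial markers CDH5 and KDR had no read, and the summed level was 63.0 to 72.8 against 60.7 to 67.6 normalized reads. The 4 leukocyte markers summed to 5449 to 5829 in control and 3355 to 3429 in PELP1-KD. LYZ (lysozyme) and CD68 made up nearly all of that sum, with few reads of PTPRC and CD3E, and they went in opposite directions. LYZ had a log2 fold change of −1.55 (edgeR adjusted p = 3.02e-16) and CD68 one of 0.48 (edgeR adjusted p = 1.25e-07). The part of these markers in the AGTR1 difference was not tested.

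The other angiotensin receptors were not detected. AGTR2, on chrX:115301958-115306225 (hg19), and MAS1, on chr6:160327974-160329107, had 0 reads in all 6 libraries. A count of 0 allows up to 3 reads in a library, or 0.0302 to 0.0384 RPKM for AGTR2 and 0.0772 to 0.0982 RPKM for MAS1. AGTR1 in PELP1-KD, at 0.578 to 0.659 RPKM, was above both limits.

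ATP6AP2 encodes the (pro)renin receptor, which is also an accessory subunit of the vacuolar proton pump. It lies on the plus strand at chrX:40440216-40465888 (hg19), with 9 exons and 2036 exon bases. Normalized reads were 2769, 2650 and 2557 in control and 2799, 2786 and 2635 in PELP1-KD. The groups overlapped, and the means of 2659 ± 106 and 2740 ± 91.4 (SD, n = 3 each) differed by less than their spread. The log2 fold change was 0.04 (SE 0.04).

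Both aminopeptidases had means above control, and the difference between their changes was not tested. ENPEP encodes glutamyl aminopeptidase, which turns angiotensin II into angiotensin III, and lies on the plus strand at chr4:111397229-111484493 (hg19), with 20 exons and 4995 exon bases. It had 122, 103 and 124 reads in control and 149, 128 and 132 in PELP1-KD, or 112, 98.7 and 118 against 153, 149 and 132 normalized reads. The PELP1-KD libraries were all above the control libraries, with means of 109.6 ± 9.97 and 144.6 ± 11.1 (SD, n = 3 each). The log2 fold change was 0.40 (SE 0.12). It was 0.33 without control replicate 2, and edgeR then no longer called it, nor did DESeq2 with all libraries. LNPEP encodes the insulin-regulated aminopeptidase, known as a binding site of angiotensin IV, and lies on the plus strand at chr5:96271346-96365115 (hg19), with 19 exons and 4795 exon bases. Normalized reads were 212, 206 and 204 in control and 249.8, 218 and 209 in PELP1-KD. The groups overlapped, PELP1-KD replicate 1 was the highest library, and the means were 207 ± 3.96 and 226 ± 21.5 (SD, n = 3 each). The log2 fold change was 0.12 (SE 0.10).

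Levels of different genes can be set in order only per length. In control the order by RPKM was AGT, ATP6AP2 (41.6), AGTR1 (13.3), LNPEP (1.38), ENPEP (0.698) and ACE (0.104). In PELP1-KD it was AGT, ATP6AP2 (42.8), LNPEP (1.39 to 1.66), ENPEP (0.921), AGTR1 (0.631) and ACE (0.0442). Neighbours in either order did not overlap over the libraries, other than AGTR2 and MAS1 at 0. AGTR1 was thus the only one of the 6 genes with reads to change its place relative to the others. The ratio of AGT to AGTR1, the precursor to the receptor, was 28.1, 27.5 and 30.0 in the control libraries. In the PELP1-KD libraries it was 368, 439 and 395. These are ratios of RPKM values within a library, and both genes were lower in PELP1-KD. The ratio of ENPEP to AGTR1 went from 0.0527 ± 0.00596 to 1.47 ± 0.183 (SD, n = 3 each). AGTR1 held 2.92 to 3.16% of the summed RPKM of the 8 genes in control and 0.192 to 0.227% in PELP1-KD. AGT held 86.4 to 87.6% and then 83.8 to 85.4%.

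Another 48 genes of the wider pathway were counted by role, and 40 of them were tested. Of these, 14 were lower and 14 higher at an adjusted p below 0.05 (35% each way, where all tested genes gave 26.8%), and 12 were not called. At 2-fold as well, 5 were lower and CCL2 and IL6, 2 genes, were higher (12.5% and 5%, where all tested genes gave 4.79% and 2.85%). The groups did not overlap in 28 of the 40 (70%, beside 58.8%). The median log2 fold change was −0.06, beside 0.0044 for all tested genes. Below, genes past 2-fold or of the smallest p in a list are given first, and others of a list were named after their values had been seen. All of these lists were written with earlier results of these data known, so their values are a description.

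**Figure D2:**
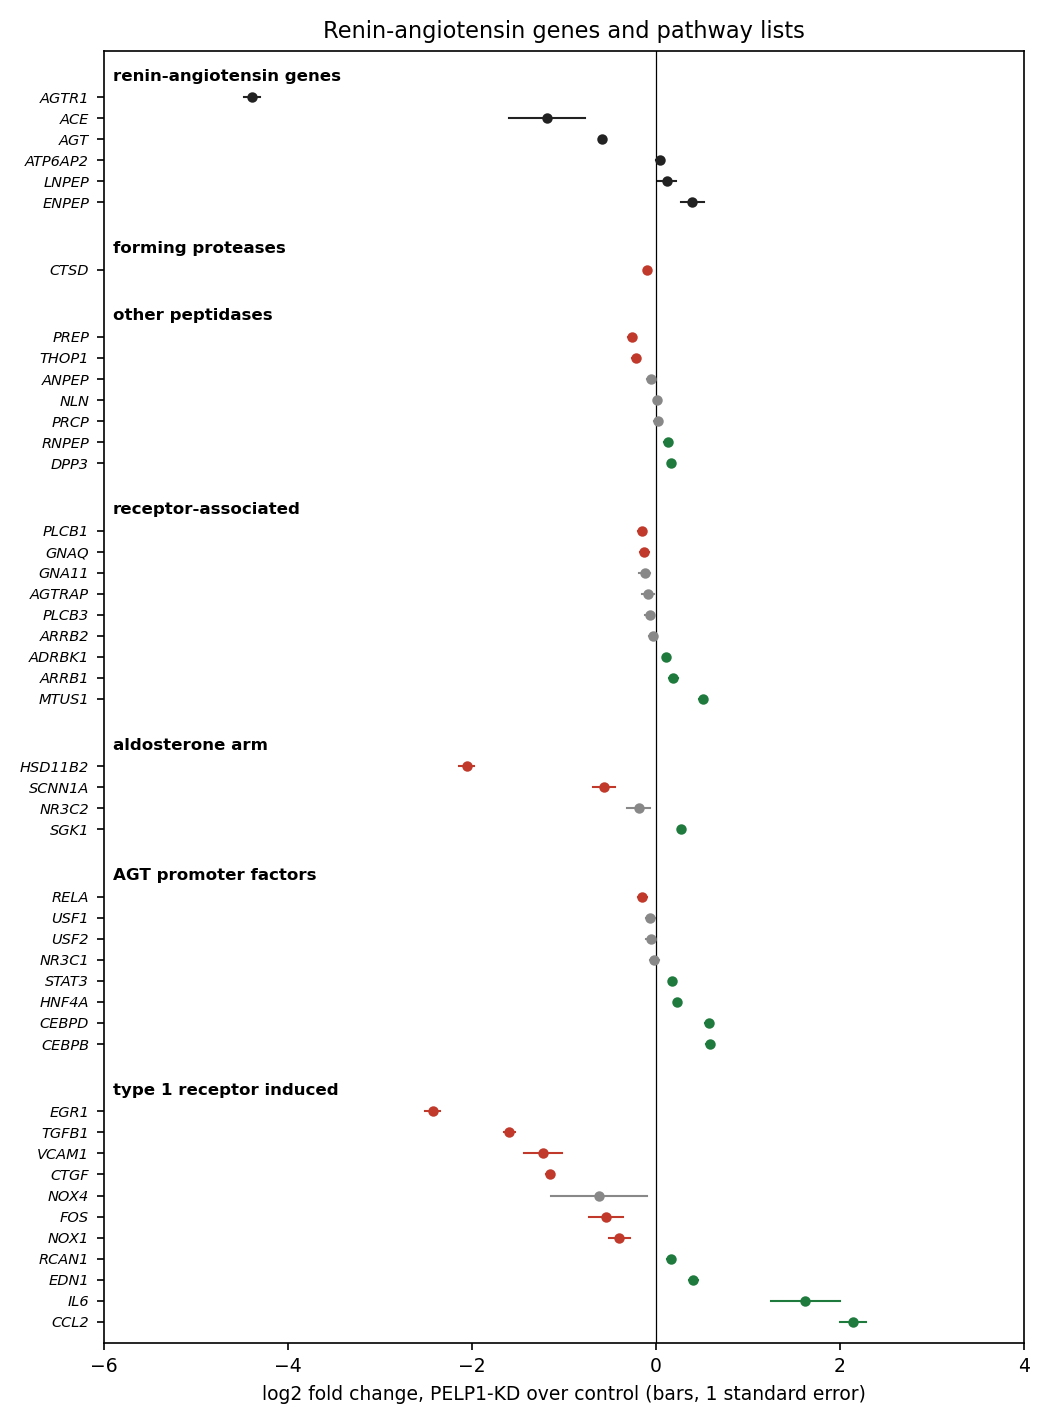
Log2 fold change of PELP1-KD over control for the renin-angiotensin genes (black) and the wider pathway by role, with bars of 1 standard error from edgeR over 3 libraries a group (bars shorter than a point are hidden). Red genes were called lower, green genes higher and grey genes were not called. AGTR1 at −4.39, EGR1 at −2.42 and HSD11B2 at −2.05 lie farthest to the left, and CCL2 at 2.15 farthest to the right.

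Of 3 proteases known to release angiotensin peptides, CMA1 (chymase) and CTSG (cathepsin G) had no read. CTSD, the lysosomal cathepsin D, was the tested one, at 34722 ± 794 against 32445 ± 1544 normalized reads (SD, n = 3 each). Its log2 fold change was −0.10 (SE 0.03, edgeR adjusted p = 0.0202). The call was lost without control replicate 3, PELP1-KD replicate 1 or PELP1-KD replicate 2 (edgeR adjusted p = 0.0891, 0.0996 and 0.0689).

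Of 8 other angiotensin peptidases, 7 were tested, and 2 were higher, 2 lower (28.6% each way, beside 26.8% of all tested genes) and 3 not called, with a median log2 fold change of 0.02. PREP, a prolyl peptidase that forms angiotensin-(1-7), had 2527, 2409 and 2359 reads in control and 1866, 1589 and 1978 in PELP1-KD. All PELP1-KD libraries were below all control libraries, and the log2 fold change was −0.26 (SE 0.04, edgeR adjusted p = 3.76e-05). DPP3, a peptidase of angiotensin II, stood at 12535 ± 220.0 normalized reads in control and 14069 ± 565 in PELP1-KD (SD, n = 3 each). Its groups did not overlap either, with a log2 fold change of 0.17 (SE 0.03, edgeR adjusted p = 0.000401). RNPEP, aminopeptidase B, had one of 0.13 (SE 0.05, edgeR adjusted p = 0.0183), which was lost without control replicate 1 or 2 (edgeR adjusted p = 0.0879 and 0.0982). THOP1, which also forms angiotensin-(1-7), was lower at −0.21 (SE 0.04, edgeR adjusted p = 0.000526). ANPEP, PRCP and NLN were not called, and MME, which encodes neprilysin, had no read.

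Of the 10 receptors and receptor-associated genes, 9 were tested, and 3 were higher (33.3%), 2 lower (22.2%, beside 26.8% each way of all tested genes) and 4 not called, with a median log2 fold change of −0.07. MTUS1, whose products bind the type 2 receptor, was higher, at 12819 ± 551 normalized reads against 9008 ± 24.5 in control (SD, n = 3 each). The log2 fold change was 0.51 (SE 0.03, edgeR adjusted p = 2.43e-10), in cells where the type 2 receptor itself had no read. ARRB1, a β-arrestin that uncouples activated receptors, had a log2 fold change of 0.19 (SE 0.05, edgeR adjusted p = 0.00285). AGTRAP, which binds the type 1 receptor and lowers its surface level, was not called at −0.09 (edgeR adjusted p = 0.296). The Gq arm that couples the type 1 receptor to calcium showed small differences. GNAQ had a log2 fold change of −0.12 (edgeR adjusted p = 0.042) and PLCB1 one of −0.15 (edgeR adjusted p = 0.0111). The GNAQ call was lost without any one of 5 libraries, all but PELP1-KD replicate 1, with edgeR adjusted p between 0.0613 and 0.144. PLCB1's was lost without control replicate 1 or 2 (edgeR adjusted p = 0.0559 and 0.0777). ADRBK1, the receptor kinase, was at 0.11 (edgeR adjusted p = 0.016), and at 0.0671 without control replicate 2. GNA11, ARRB2 and PLCB3 were not called, but GNA11 passed with the replicate number as a block (edgeR adjusted p = 0.0136). Without PELP1-KD replicate 3, edgeR called GNA11 (adjusted p = 0.000523) and PLCB3 (adjusted p = 0.0177) lower.

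In the aldosterone arm, the enzymes that make the hormone, CYP11B1 and CYP11B2, had no read. HSD11B2, which inactivates cortisol and so keeps it off the mineralocorticoid receptor, had 695, 744 and 674 reads in control and 159, 132 and 163 in PELP1-KD. All PELP1-KD libraries were below all control libraries, with a log2 fold change of −2.05 (SE 0.08, edgeR adjusted p = 5.71e-14). SCNN1A, a subunit of the epithelial sodium channel, fell by 0.56 on the log2 scale (SE 0.12, edgeR adjusted p = 0.000472). SGK1, a kinase that aldosterone induces, rose by 0.27 (SE 0.03, edgeR adjusted p = 1.27e-06). NR3C2, the gene of the mineralocorticoid receptor, was not called at −0.18 (edgeR adjusted p = 0.233). SCNN1B had 3 reads in all and SCNN1G had none. With 4 genes tested of 8, the median log2 fold change was −0.37.

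Of 8 factors known to act on the AGT promoter in liver cells, 4 were higher (50%), 1 (RELA) was lower (12.5%) and 3 were not called, where 26.8% of all tested genes were called each way. The median log2 fold change was 0.08. CEBPB stood at 2895 ± 27.4 in control and 4343 ± 127 in PELP1-KD, in normalized reads, and CEBPD at 4975 ± 85.5 and 7419 ± 534 (SD, n = 3 each). Both encode C/EBP factors of the acute-phase response, and both had a log2 fold change of 0.58 (SE 0.04, edgeR adjusted p = 1.56e-10 and 1.29e-09). STAT3 (0.18, edgeR adjusted p = 0.000127) and HNF4A (0.23, edgeR adjusted p = 1.37e-05) were also higher. RELA, of NF-κB, was lower at −0.15 (edgeR adjusted p = 0.0218), though its groups overlapped, and lost its call without control replicate 2 or 3 or PELP1-KD replicate 1 or 2 (edgeR adjusted p = 0.0889, 0.112, 0.11 and 0.0601). NR3C1, USF1 and USF2 were not called. USF2 was called lower without PELP1-KD replicate 3 (edgeR adjusted p = 0.00782).

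Genes that angiotensin II is known to induce through the type 1 receptor did not move together. Of 11, 6 were lower (54.5%), 4 higher (36.4%) and 1 (NOX4) not called, where 26.8% of all tested genes were called each way. Past 2-fold as well, 4 were lower and 2 higher (36.4% and 18.2%, where all tested genes gave 4.79% and 2.85%). The median log2 fold change was −0.54. EGR1, an early response transcription factor, had 894, 818 and 754 reads in control and 136, 127 and 146 in PELP1-KD. Its log2 fold change was −2.42 (SE 0.08, edgeR adjusted p = 5.12e-15). TGFB1, the profibrotic growth factor, had 1972, 1970 and 1969 reads in control and 542, 571 and 630 in PELP1-KD. All 3 PELP1-KD libraries of both genes were below all control libraries, and TGFB1 had a log2 fold change of −1.59 (SE 0.06, edgeR adjusted p = 2.06e-14). CTGF, a matrix-associated growth factor, stood at 5347 ± 74.3 against 2411 ± 79.7 normalized reads (SD, n = 3 each; log2 fold change −1.15, SE 0.04, edgeR adjusted p = 6.52e-15). VCAM1, an adhesion molecule, had few reads and a log2 fold change of −1.22 (SE 0.20, edgeR adjusted p = 4.26e-05).

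CCL2 and IL6, inflammatory genes of the same list, went the other way. CCL2, a chemokine that attracts monocytes, had 52, 88 and 86 reads in control and 322, 264 and 309 in PELP1-KD. The log2 fold change was 2.15 (SE 0.14, edgeR adjusted p = 1.3e-10), and its groups did not overlap. IL6, with 3, 11 and 14 reads in control and 29, 20 and 29 in PELP1-KD, had one of 1.63 (SE 0.38, edgeR adjusted p = 0.00119). EDN1, which encodes endothelin, was higher at 0.41 and RCAN1, a regulator of calcineurin, at 0.17 (edgeR adjusted p = 6.75e-07 and 0.00229). NOX1, an oxidase subunit, was lower at −0.39 (edgeR adjusted p = 0.00796, and 0.0578 without control replicate 1). FOS was lower at −0.54 (edgeR adjusted p = 0.0181). The FOS call was lost without control replicate 1 or PELP1-KD replicate 1 (edgeR adjusted p = 0.158 and 0.0679), and by DESeq2 (adjusted p = 0.0593). NOX4 was not called (edgeR adjusted p = 0.339), but was at −1.52 without PELP1-KD replicate 2 (edgeR adjusted p = 0.047). FOS stands in a panel that the study chose on these libraries, and CTGF was known from earlier results of them. The other genes of the list were also chosen with earlier results of these data known. None of the list is therefore independent evidence of a direction.

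The position of AGTR1 was also examined, since it played no part in choosing the gene. Within 1 Mb of it on chromosome 3 the tables hold 12 other genes, all downstream of its end, and 8 were tested. Of the 8, 6 were lower and 1 was higher, where 26.8% of all tested genes were called in each direction. The median log2 fold change was −0.37, beside 0.0044 for all tested genes. TM4SF4, which encodes a tetraspan membrane protein, was the only one past 2-fold, where 4.79% of all tested genes were in that direction. It starts 732 kb from the end of AGTR1 and had 1850, 1678 and 1719 reads in control and 150, 138 and 170 in PELP1-KD. Its normalized level went from 1648 ± 44.4 to 161 ± 8.12 (SD, n = 3 each), with a fitted log2 fold change of −3.35 (SE 0.07, edgeR adjusted p = 7.82e-19). TM4SF4, like AGTR1, is among the genes for which the study designed primers, so it too was selected on these libraries. Nothing is read from the counts and the median of these neighbours, which include TM4SF4. The related gene TM4SF1, which lies between TM4SF4 and AGTR1 at 626 kb, went the other way. TM4SF1 had 3044, 2878 and 2794 reads in control and 4510, 3876 and 4222 in PELP1-KD (log2 fold change 0.70, SE 0.04, edgeR adjusted p = 3.62e-11).

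**Figure D3:**
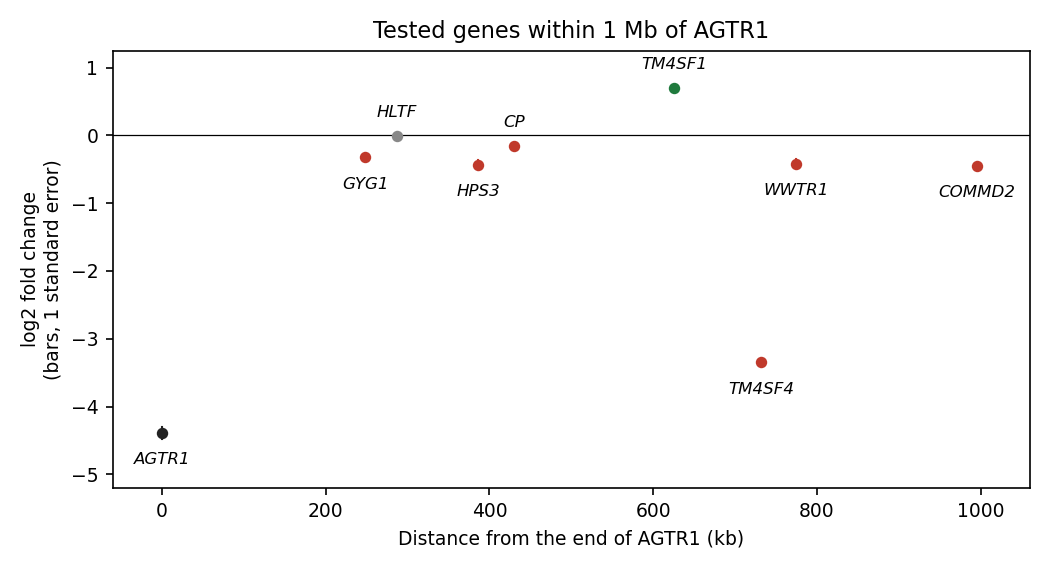
Log2 fold change of PELP1-KD over control against distance from the end of AGTR1, for AGTR1 (black) and the 8 tested genes within 1 Mb, with bars of 1 standard error over 3 libraries a group (most are shorter than a point). Red genes were called lower, green higher and grey not called. TM4SF4 at −3.35 stands apart from the other neighbours, which lie between −0.45 and 0.70.

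The tested gene nearest to AGTR1, GYG1, encodes glycogenin, the primer of glycogen, and begins 248 kb away with a log2 fold change of −0.32 (SE 0.06, edgeR adjusted p = 9.38e-05). HLTF, a chromatin remodeller at 287 kb, was not called at −0.01 (edgeR adjusted p = 0.879), and its sign changed between alternatives, from −0.06 to 0.04. HPS3, needed for lysosome-related organelles, was at −0.44 (SE 0.07, edgeR adjusted p = 4.19e-05). CP, which encodes the copper carrier ceruloplasmin, was at −0.15 (SE 0.04, edgeR adjusted p = 0.00505). HPS3 and CP overlap on opposite strands, and the counting was by strand. WWTR1, which encodes the coactivator TAZ, was at −0.42 (SE 0.07, edgeR adjusted p = 6.32e-05), and COMMD2 at −0.45 (SE 0.06, edgeR adjusted p = 3.43e-06). The remaining neighbours CPB1, CPA3, TM4SF18 and WWTR1-AS1 had too few reads to be tested.

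Last, the genes whose pattern over the 6 libraries was most like that of AGTR1 were found among the 11746 genes whose control libraries averaged 100 normalized reads or more. Likeness was the root mean square difference of log2(normalized reads + 1), less the control mean, so it uses the same contrast as the choice of AGTR1 and is a description only. PAQR8, a membrane progestin receptor on chromosome 6, came first with a difference of 0.113. It went from 1267 ± 53.7 to 56.4 ± 4.46 normalized reads (SD, n = 3 each), to 4.45% of control. FREM2, an extracellular matrix protein on chromosome 13, followed at 0.167, with a mean of 189 against 8.44 normalized reads. SNRPN, on chromosome 15, was at 0.169 and went from 2786 ± 103 to 128 ± 15.0 normalized reads (SD, n = 3 each). SNURF shares its reads with SNRPN and is no separate entry. IPW, a noncoding RNA of the same imprinted region, was at 0.179, with 334 against 13.0 normalized reads. None of the 5 lies on the chromosome of AGTR1.

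**Figure D4:**
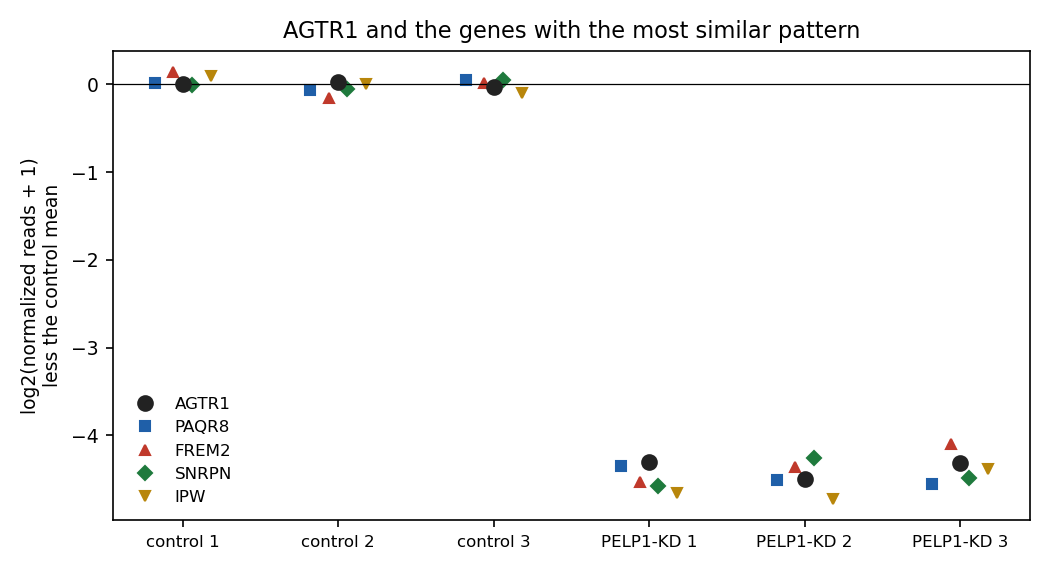
Pattern over the 6 libraries of AGTR1 (black circles) and of 4 genes most like it, as log2(normalized reads + 1) less the control mean. The points of all 5 genes lie near 0 in the control libraries and below −4 in the PELP1-KD libraries. SNURF, which shares its reads with SNRPN, is left out.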

How the data were processed

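RNA-seq was measured in 3 control and 3 PELP1-KD Hep3B libraries, grouped by their labels. The authors deposited estimated counts per gene without normalization. Per the file headers these came from featureCounts 1.5.0-p1 on hg19, strand-aware, at mapping qualities of 2 or more, and reads that matched several places or genes were shared out as fractions. The submitters' processing notes name HISAT2, whereas the paper names TopHat2 and HTSeq. The labels differ on the extraction and library kits.

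Estimated counts were rounded. Genes were filtered by filterByExpr and fitted with edgeR 4.0.16 (R 4.3.3; TMM, robust glmQLFit, glmQLFTest), with Benjamini-Hochberg adjustment over 14537 genes, at 0.05 and 2-fold. Standard errors (median 0.0632) were taken as the fold change in log2, without its sign, divided by the root of F. Normalized reads are reads scaled by TMM library size. RPKM was computed from these and the exon lengths of the tables. Intervals of pooled reads are exact binomial, and intervals and floors (3 reads) cover counting error only. The 8 genes and all gene lists were chosen with earlier results of these data known.

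Named genes were the 8 genes, PELP1, list genes past both thresholds (at most 6 a list; otherwise the 2 of smallest p), tested genes within 1 Mb of AGTR1, and the 5 genes most like it. Alternatives were DESeq2 1.42.0, its size factors, no filter, at least 10 reads in every library, unrounded counts, the replicate block and leaving out every single library. The methods were tested on simulated data. Same-numbered libraries of both groups deviated together from their group means (r = 0.336, 0.247 and 0.666 over 6370 genes, and genes are not independent replicates). The numbers were treated as pairs in the replicate block only, and the main fit used the group alone. Control 2 with PELP1-KD 1 (r = 0.418) and control 1 with PELP1-KD 2 (r = 0.244) correlated as well, so the values set replicate 3 apart but do not match replicates 1 and 2 by number. Promoters came from RefSeq (GRCh38.p14) and coding bases from GRCh37. Some genes of the lists are not reported here and are left out of the counts.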

Additional observations from a re-analysis of the deposited data

How the results depend on the processing

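Across all alternatives, AGTR1 kept its direction, with a log2 fold change between −4.42 and −4.33 with 1 library left out. Of the 8 genes, 4 were called by edgeR. DESeq2 called 2 of them, AGT and AGTR1, and between 2 and 4 were called with 1 library left out. Past 2-fold as well, 2 were called. With at least 10 reads in every library, which leaves ACE untested, this was 1, by DESeq2 also 1, and 1 or 2 with 1 library left out. Called genes of the wider pathway numbered 28, and 23 to 30 with 1 library left out. Over all genes, 7788 of the 14537 tested were called in the main fit, and 6766 to 7938 with 1 library left out. DESeq2 called 6866 of all genes, and the replicate block 8828. Nothing about the genes named is read from how steady their counts were. The 7 called neighbours of AGTR1 numbered 7 under every alternative. With the replicate block, for which libraries of one number were treated as a pair, AGTR1 was at −4.39, and the calls that changed among the genes named were those of PELP1 and GNA11. DESeq2 lost GNAQ (adjusted p = 0.0957) and FOS, and no filter lost GNAQ (edgeR adjusted p = 0.0693). ACE, IL6 and VCAM1 rest on few reads, so depth limits their values.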
